A study of Homo sapiens with 2 samples.

Results

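The cluster of miR-183, miR-96 and miR-182 is a group of 3 microRNA genes on chromosome 7, MIR183, MIR96 and MIR182, that lie on the minus strand within 4632 bases. They were taken as the rows of the deposited count table with the miRNA biotype and these 3 names, out of 1877 miRNA rows and 61554 rows in all. The cluster was selected on the counts of these same libraries, which were known when it was picked, so the values below describe the members and are not a test of them.

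The data are 2 ribosome profiling libraries of HEK293T cells, a human line of embryonic kidney origin, with the genotype given as WT. Each culture grew in dishes of 15 cm, in the presence of the compound named TetBu, and both were transfected with the plasmid for TetRS (chPylRSIPYE), a synthetase variant. That plasmid also carries U6-driven cassettes, listed as 12, of the tRNA named CM15 with the anticodon CGA. Only 1 culture was also given the plasmid pEGFP-mCherry-T2A-EGFP-151TCG, called the reporter here. Cells were collected after 30 h of expression and 1 min with 0.1 mg/mL cycloheximide, and both plasmids were introduced by transfection, so cells that took up neither may be part of each library. Each group had 1 library, so every difference below is one between 2 libraries, without a replicate check, and no p-value is given.

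A microRNA is cut from a hairpin in a longer transcript and then trimmed to a mature strand of about the length of the sequences printed here, which Argonaute proteins hold. Bases 2 to 8 of the mature strand, the seed, pair with sites in mRNAs, which are then translated less or degraded. The 3 microRNAs of this cluster are transcribed together. They are known for their high levels in sensory hair cells, photoreceptors and sensory neurons, and are often high in epithelial tumours. MicroRNAs are not translated, so a count in these rows is a count of small RNA fragments in the library and not a measure of ribosomes on a message.

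The members are shown by their mature sequences so that their seeds can be compared. The 5p strands, with the seed in capitals and the rest in lower case, are as follows in RefSeq (GRCh38.p14, minus strand).
miR-183-5p (chr7:129774967-129774988): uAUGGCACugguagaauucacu
miR-96-5p (chr7:129774739-129774761): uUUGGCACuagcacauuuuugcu
miR-182-5p (chr7:129770447-129770470): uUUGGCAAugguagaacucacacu

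All 3 seeds differed, but by 1 or 2 bases. Counted from 1 at the 5′ end, the seed of miR-182-5p differed from that of miR-96-5p by the single substitution A8C, and that of miR-96-5p from miR-183-5p by U2A. The seeds of miR-182-5p and miR-183-5p differed by both U2A and A8C. Over the whole strand, seed included, the likeness ran differently. Compared base by base from the 5′ end without gaps, miR-182-5p and miR-183-5p were identical at 18 of 22 positions. miR-182-5p and miR-96-5p were identical at 12 of 23, of which the first 7 were shared without a break. The 5p strands were alike in base composition, with a G and C content of 40.9% for miR-183-5p, 39.1% for miR-96-5p and 41.7% for miR-182-5p.

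The hairpins of MIR96 and MIR182 are printed to show what the counting intervals hold, with both mature strands in capitals, the 5p strand first (RefSeq, GRCh38.p14, minus strand).
MIR96 hairpin (chr7:129774692-129774769): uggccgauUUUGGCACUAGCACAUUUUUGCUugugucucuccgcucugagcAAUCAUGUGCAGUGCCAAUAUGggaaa
MIR182 hairpin (chr7:129770383-129770492): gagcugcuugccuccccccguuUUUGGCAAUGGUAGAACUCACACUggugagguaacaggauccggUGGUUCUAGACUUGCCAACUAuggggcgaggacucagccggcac

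The count table gave 1 value for each hairpin, and the interval of both rows matched the RefSeq hairpin base for base. Reads of the 5p strand, the 3p strand and the uncut hairpin were therefore added together. The listed lengths were 110 bases for MIR183 and MIR182 and 78 for MIR96. In the order of transcription, MIR183 comes first (chromosome 7, 129774905 to 129775014 in the deposited table), MIR96 follows after 135 bases (129774692 to 129774769), and MIR182 lies another 4199 bases on (129770383 to 129770492). No other row of the table overlapped any of them.

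The libraries held 2519301 counts with the reporter and 3151403 without it. The reporter sequence had 271843 counts in the culture that received it and 399 in the other, in the direction of the titles. TetRS, whose plasmid both cultures received, had 30286 against 59723. All miRNA rows together held 12.5% of counts in the library with the reporter, with an exact interval of 12.4 to 12.5%, and 30.4% in the other (30.4 to 30.5%). MIR148A alone made 30.4% of the miRNA counts with the reporter and 64.1% without it. The 10 listed genes that HEK293 cells are known to express had 383 and 276 counts in all. Among them the neurofilament gene NEFL had 106 and 49 counts, NEFM 56 and 50, and VIM 148 and 131, while PAX2 had 2 and 4 and HOXC10 0 and 1.

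MIR182 was the most counted member in both libraries. With the reporter it had 81986 counts, against 117227 in the other library, or 3.25% (3.23 to 3.28%) and 3.72% (3.70 to 3.74%) of all counts. Its deposited RPKM, a count scaled by listed gene length and library size, was 259381 and 385709. By either measure it was the second highest of the 1877 miRNA rows in both libraries. Among rows of every class it ranked 5 by counts with the reporter and 3 without it.

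MIR183 came next, at 9585 counts in the library with the reporter and 20371 in the other. These were 0.380% (0.373 to 0.388%) and 0.646% (0.638 to 0.655%) of the libraries, at deposited RPKM values of 30324 and 67026. By counts it ranked 5 among miRNA rows in both. The other genes among the 5 most counted miRNA rows were the same in both libraries. They were MIR148A with 95417 and 614704 counts, MIR10B with 46312 and 61497, and MIR629 with 9778 and 23803.

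MIR96, which lies between the other members and next to MIR183, had only 58 counts where the reporter was present and 295 where it was not. Its deposited RPKM was 259 and 1369, and by counts it ranked 85 and 55 among miRNA rows. With 58 counts, its share of the first library was 0.00230% (0.00175 to 0.00298%), against 0.00936% (0.00832 to 0.0105%) in the second. The order MIR182, MIR183, MIR96 was thus the same in both libraries, by counts and per listed length, and the counting intervals of neighbours in it did not overlap.

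The members lay far apart in counts, although they are known to share a transcript. How evenly the libraries captured each sequence was not measured, so the ratios below are not ratios of RNA amounts in the cells. MIR182 had 8.55 times the counts of MIR183 with the reporter (8.37 to 8.74) and 5.75 times without it (5.67 to 5.84). By counts MIR182 lay 1414 and 397 times above MIR96, with and without the reporter, and MIR183 165 and 69.1 times. Per listed length, MIR182 lay 1002 times above MIR96 in the first library and 282 times above it in the second. MIR183 lay 117 and 49.0 times above MIR96 on the same scale. MIR182 made up 89.5% of the cluster's counts with the reporter (89.3 to 89.7%) and 85.0% without it (84.8 to 85.2%). MIR183 made 10.5% (10.3 to 10.7%) and 14.8% (14.6 to 15.0%), and MIR96 0.0633% (0.0481 to 0.0818%) and 0.214% (0.190 to 0.240%).

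All 3 members were lower with the reporter once counts were scaled by TMM over all rows, but by unlike amounts. MIR182 had a log2 ratio, with the reporter over without it, of -0.65 (-0.66 to -0.64), which is 1.57-fold lower. MIR183 was at -1.22 (-1.26 to -1.18), or 2.33-fold lower (2.27 to 2.39). MIR96 was at -2.48 (-2.91 to -2.07), or 5.57-fold lower (4.19 to 7.52). These intervals are exact 95% intervals of a share of the summed counts and cover counting error only. Reads copied by PCR are not independent molecules, so the intervals may be too narrow.

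The order of the ratios was the order of the counts, with the most counted member the least lowered. The ratio of MIR182 to MIR183 was 1.49 times as high with the reporter, a log2 difference of 0.57 (0.53 to 0.61). That of MIR183 to MIR96 was 2.39 times as high, a difference of 1.26 (0.85 to 1.67), and that of MIR182 to MIR96 was 3.56 times as high, at 1.83 (1.42 to 2.24). These differences do not depend on how the libraries are scaled, and each exceeded its counting error. The spread between cultures was not measured.

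MIR183 and MIR96 were at least 2-fold lower with intervals that excluded 0, and MIR182 was not. Of the 97 miRNA genes with 100 or more counts summed over both libraries, 44 met that rule under TMM, or 45.4%. Under that scaling none was at least 2-fold higher. With total counts as the scaling 29 of the 97 met it, and MIR183 no longer did, at -0.76. Against the total of miRNA counts 4 met it, and MIR96 no longer did, at -0.74. MIR182 was then at least 2-fold higher, at 1.10. Genes at least 2-fold higher were counted under TMM only, so their absence does not extend to other scalings. Among 1060 coding genes with as many counts, 6 were lower by the same rule under TMM, or 0.566%. The median log2 ratio of the 97 miRNA genes was -0.91 and that of the coding genes 0.11. Relative to the miRNA median, MIR96 was at -1.56, MIR183 at -0.31 and MIR182 at 0.27. Ranked from the lowest of the 97, they came at 5, 36 and 62.

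**Figure D1:**
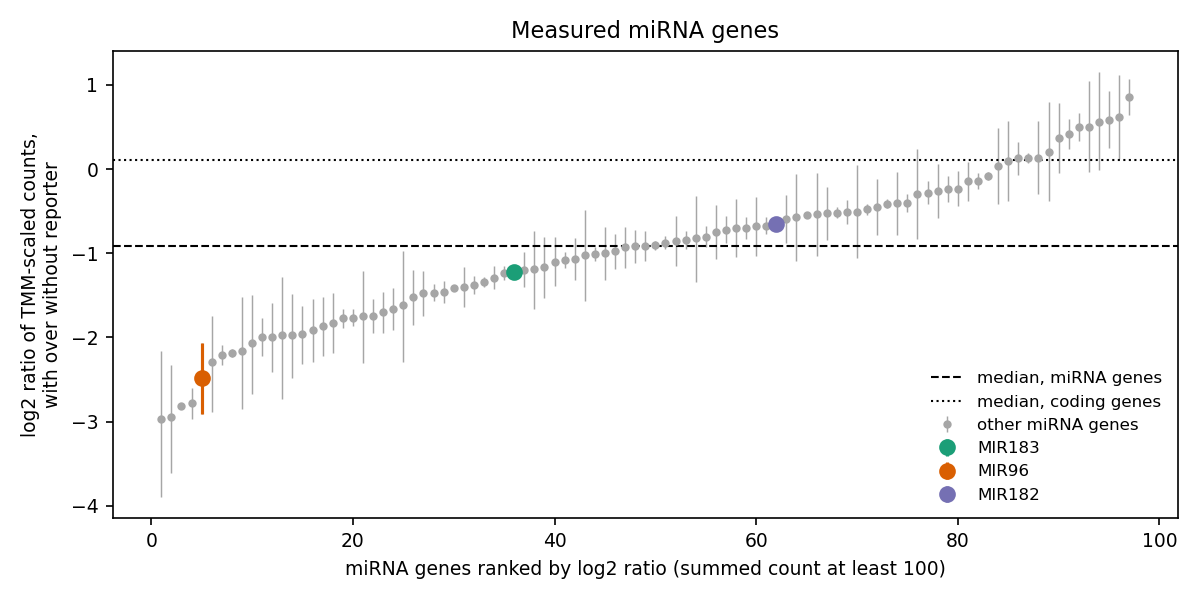
Log2 ratios of TMM-scaled counts, with over without the reporter, for the 97 miRNA genes with 100 or more summed counts, ranked from lowest to highest; bars are exact 95% counting intervals, and the lines mark the medians of miRNA and coding genes. MIR96 has rank 5 from the left at -2.48, MIR183 at -1.22 lies just below the miRNA median of -0.91, and MIR182 at -0.65 just above it.

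Among miRNA genes with 100 or more summed counts, members included, the median ratio did not rise or fall steadily with level. Whether level bears on the ratios of the 3 members was not tested. The median log2 ratio was -0.68 for the 27 genes with 100 to 300 summed counts and -0.996 for the 31 genes with 300 to 1000, the class that holds MIR96 at 353. It was -0.84 for the 29 genes with 1000 to 10000 and -1.06 for the 10 genes above that, among them MIR182 and MIR183.

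Pooled, the cluster had 91629 counts in the library with the reporter and 137893 in the other, at a log2 ratio of -0.72 (-0.73 to -0.71) that follows MIR182. The other miRNA rows together were at -2.02 (-2.02 to -2.01), and without MIR148A at -0.83 (-0.84 to -0.82). The cluster made up 29.2% of all miRNA counts with the reporter (29.0 to 29.4%) and 14.4% without it (14.3 to 14.5%). With MIR148A left out of the miRNA counts the shares were 41.9% (41.7 to 42.1%) and 40.1% (39.9 to 40.2%). Without MIR148A in the denominator the shares of the libraries thus lay much closer, though their counting intervals did not overlap.

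The direction of the 2 larger members rested on the scaling. Relative to total counts, MIR182 was at -0.19 (-0.21 to -0.18) and MIR183 at -0.76. Relative to the total of miRNA counts, of which MIR148A makes so unequal a part, MIR182 was higher with the reporter at 1.10 and MIR183 at 0.52, while MIR96 remained lower at -0.74 (-1.17 to -0.33). MIR96 had the lowest ratio of the 3 and MIR182 the highest under each of these scalings, which move all genes of a library alike.

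**Figure D2:**
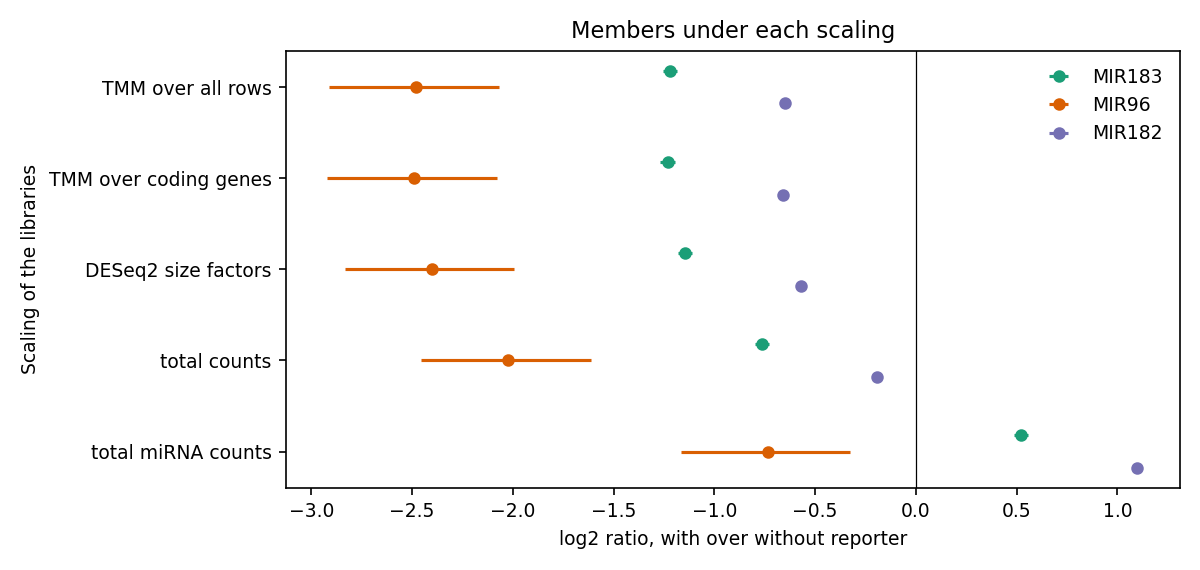
Log2 ratios, with over without the reporter, of the 3 members under 5 scalings of the libraries, with exact 95% counting intervals. MIR96 is below 0 under all 5, whereas MIR183 and MIR182 move from -1.22 and -0.65 under TMM to 0.52 and 1.10 when counts are set against the miRNA total.

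Ratios of neighbouring miRNA genes were compared in the same way, with groups formed by position alone and not by a known shared transcript. Grouping miRNA rows of 1 strand that lie within 10 kb of the next gave 9 clusters with at least 2 genes of 100 or more summed counts. The range from lowest to highest log2 ratio was 1.83 for MIR183, MIR96 and MIR182, and 0.01 to 2.32 for the other 8, with a median of 0.72. The widest was that of MIR25, MIR93 and MIR106B, from -2.19 (-2.24 to -2.13) for MIR25 to 0.13 (0.07 to 0.19) for MIR93. MIR221 and MIR222 lay 1.35 apart, at -1.77 and -0.41. MIR99A and MIRLET7C lay 0.04 apart and MIR30B and MIR30D 0.01 apart. The clusters held 2 to 4 genes of 100 or more summed counts, and a range can only widen as genes are added. Without MIR96, the range of the cluster described here was 0.57, below the median of 0.72 of the other 8.

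Among all mature sequences of the RefSeq table, only 1 from another gene carried the 5p seed of a member. It is printed because a shared seed can pair with the same short sites.
miR-1271-5p (chr5:176367960-176367981, plus strand): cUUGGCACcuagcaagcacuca
Its seed is that of miR-96-5p, and the strands were identical at 9 of 22 positions. MIR1271 had 58 counts where the reporter was present and 46 where it was not, at a log2 ratio of 0.20 (-0.38 to 0.79), where MIR96 had 58 and 295. The intervals of these genes did not overlap. These are counts of whole hairpin rows, so they give no level of the 5p strands that carry the seed.

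Of 37 other miRNA genes with 1000 or more summed counts, the 3 with the log2 ratio nearest to the pooled cluster were taken over the 2 libraries. MIR1255A, with 524 and 787 counts, was at -0.72 (-0.88 to -0.56). MIR196A2, a microRNA gene of the HOXC cluster, had 784 and 1159 counts and was at -0.70. MIR641 had 1289 and 1874 and was at -0.67. With 2 libraries this likeness is a single number for each gene.

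Counts from the surroundings of the cluster were few. NRF1, which encodes a transcription factor of respiratory genes and ends 13300 bases from MIR182, had 12 and 9 counts, in the libraries with and without the reporter. UBE2H, a ubiquitin-conjugating enzyme gene on the other side at 55717 bases, had 20 and 26. The nearest unnamed lncRNA gene on the same strand, ENSG00000286380 at 1180 bases from MIR182, had 0 counts in both, as did ENSG00000242078 at 8355 bases from MIR183. A count of 0 allows up to 3 counts, or 0.000119% and 9.52e-05% of the libraries. Of the counts assigned to genes from NRF1 to UBE2H, the hairpin rows therefore held nearly all. Reads outside listed genes were not counted.

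Published targets of these microRNAs were too thinly covered to be read. Of 31 listed coding genes, 2 reached a summed count of 100. EZR, which encodes the membrane linker ezrin, had 62 and 49 counts and a log2 ratio of 0.21 (-0.36 to 0.78). CTTN, which encodes the actin-binding protein cortactin, had 58 and 47 and was at 0.17 (-0.41 to 0.76). Neither was at least 2-fold higher or lower, where 2.83% and 0.566% of coding genes were. All 31 together had 592 and 496 counts, a pooled log2 ratio of 0.12. All coding genes together had 346240 and 307768 counts. The coding median of 0.11 is taken over single genes with 100 or more counts, so it is not a like measure to the pooled ratio. The transcription factor FOXO1, a target named for several members, had 7 counts in each library and FOXO3 had 16 and 19. PDCD4, a translation inhibitor, had 49 and 17, IRS1, an insulin receptor substrate, had 9 and 0, and CASP9, an initiator caspase, had 3 and 13. PDCD4, IRS1 and CASP9 were among the most unequal of the listed genes. Other unequal ones ran both ways, such as ADCY6 with 14 and 3, IDH2 with 17 and 6 and CLOCK with 8 and 16. Others were near even, such as ITGB1 with 29 and 32 and BRCA1 with 29 and 30.

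The proteins that make and hold microRNAs were likewise sparse. Of 18 listed genes, AGO2, the Argonaute that can cut its target, had 47 and 80 counts, a log2 ratio of -0.90 (-1.45 to -0.36). RAN, the GTPase of nuclear export, had 257 and 212 and was at 0.15 (-0.12 to 0.41). Neither met the 2-fold rule, which 0.566% of measured coding genes met as lower and 2.83% as higher. The interval of AGO2 lay below the coding median of 0.11, as did those of 171 of the 1060 measured coding genes. The hairpin-cutting enzymes DROSHA and DICER1 had 36 and 40 counts, and 17 and 31. All 18 together had 611 and 586 counts, at a log2 ratio of -0.07. That sum holds sparse genes that ran both ways, such as AGO1 with 12 and 31 counts and TNRC6C with 17 and 2.

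MicroRNA markers of other cell types were given for the whole list, and their part in the members' values was not tested. The 6 epithelial genes together had 809 and 836 counts, in the libraries with and without the reporter. Within them MIR200B was at -1.66 (-1.91 to -1.41), with 177 and 510 counts, and MIR200C at 0.85 (0.64 to 1.07), with 548 and 277. The endothelial MIR126 had 207 and 752 counts. The 5 leukocyte genes had 13 and 5 counts, the 5 mesenchymal genes 42 and 10, the 5 muscle genes 34 and 55, the 6 neuronal genes 12 and 13, and the 3 endocrine genes 24 and 54. Erythroid genes had 0 in both and hepatocyte genes 0 and 1. Of these 35 genes 19 had no count, among them the defining MIR122, MIR142, MIR223 and MIR451A. Another row lay over 17 of those 19 on the same strand, and over 9 of the 16 genes with counts, MIR126 and MIR200C among them. Whether an overlap lowered a count was not tested. Related genes outside the lists had counts. MIR7-3 had 471 and 393, where the listed MIR7-1 and MIR7-2 had 0 in both libraries. MIR199B had 150 and 293, where the listed MIR199A1 and MIR199A2 had 0. The endocrine and mesenchymal sums therefore hold only the listed genes.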

How the data were processed

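The authors deposited whole-number counts per gene and RPKM values for the same 61554 rows. Per the submitters' processing notes, TopHat2 2.0.12 and HTSeq 0.9.1 and the builds GRCh37 and hg19 are named, in roles they do not state. Coordinates in the deposited table were those of GRCh38: all 1851 miRNA symbols matched in the RefSeq gene table overlapped their locus there. How strand and multiply matching reads were handled is not stated. The deposited RPKM values equalled counts over listed length and over library sizes of 2873483 and 2762965, which are the sizes that DESeq2 1.42.0 factors give.

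Counts were scaled with TMM over all rows in edgeR 4.0.16 (R 4.3.3). Ratios and shares carry exact Clopper-Pearson intervals at 95%, and differences between the ratios of 2 members carry Wald intervals of the log odds ratio (Python 3.11.15, numpy 2.4.6, scipy 1.17.1, pandas 2.3.3). The steps were checked on simulated counts. Genes counted as measured had a summed count of at least 100. Mature sequences were matched by symbol for 88 of the 97 measured miRNA genes. Genes named in the text were the members, miRNA genes sharing a 5p seed with one, the 3 nearest in ratio, the 5 most counted miRNA genes, the nearest coding genes, measured clusters, and genes of the lists. Unnamed neighbouring lncRNA genes and list genes below the minimum were named after their counts were seen. So were MIR7-3 and MIR199B, which are in none of these groups. The members and lists were chosen with earlier results of these data known. Alternatives were other scalings, count minimums, denominators and cluster distances, the deposited RPKM with 0.1 added, and thinning of the deeper library.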

Additional observations from a re-analysis of the deposited data

Results flagged for a closer look

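In the culture that was not given the reporter plasmid, 399 counts were assigned to the reporter sequence, above the 3 that an observed count of 0 allows.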

How the results depend on the processing

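Of 44 alternatives computed, 18 left the result within a set limit, 23 moved it and 3 reversed it. The limit was the main interval for ratios and shares, and 1.5 times for the count of genes. For the target median it was the standard deviation of the 2 measured targets. For the range within the cluster it was the half-width of the MIR96 interval. Relative to the total of miRNA counts, the log2 ratios reversed to 1.02 for the pooled cluster, 0.52 for MIR183 and 1.10 for MIR182, and that of MIR96 moved to -0.74. With total counts they were -0.27, -0.76 and -0.19 for the cluster, MIR183 and MIR182, and -2.02 for MIR96. With DESeq2 size factors they were -0.65, -1.14 and -0.57 for the cluster, MIR183 and MIR182, and with deposited RPKM plus 0.1 likewise -0.65, -1.14 and -0.57. TMM over coding genes gave -0.73 for the cluster. The cluster's share of miRNA counts became 41.9% and 40.1% without MIR148A, and 3.64% and 4.38% of all counts. The number of miRNA genes at least 2-fold lower was 29 with total counts and 4 of 97 with miRNA counts, and 77 of 187 at a minimum of 20, 95 of 476 at 1 and 17 of 39 at 1000. The number at least 2-fold higher was not recounted under these alternatives. The median of the listed targets relative to coding genes, 0.08 over 2 genes, was 0.0056 over 18 genes at a minimum of 20. The range within the cluster was 0.57 at a minimum of 1000, which leaves MIR96 out. Differences between members do not change with scaling by construction. The same holds for the target median relative to coding genes. A cluster distance of 5 kb could not separate members whose widest gap was 4199 bases. The deposited RPKM repeats the DESeq2 sizes. The tally of alternatives is therefore not a measure of stability. Depth limits MIR96, at 58 counts in 1 library, and nearly all listed targets. No paired analysis was possible because each group had 1 library.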
